A study of Saccharomyces cerevisiae with 26 samples.

Results

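Chromatin immunoprecipitation of Rpb3, followed by sequencing, was compared between asynchronously growing budding yeast (Saccharomyces cerevisiae) labelled fkh1Δfkh2Δ2C and WT. The comparison takes the 4 asynchronous Rpb3 libraries, 2 of the mutant and 2 of WT, out of 8 Rpb3 libraries and 26 libraries in the series, and group results are also given without asynchronous WT replicate 1. All cells grew in YEPD, a rich glucose medium, at room temperature. The other 4 Rpb3 libraries hold the same strains after 4 hours with α-factor, a mating pheromone under which a cells arrest in G1. Their levels come from libraries that the asynchronous comparison does not use, but the tests of both stages share an estimate of the spread. The mutant is labelled as lacking both Forkhead genes, FKH1 and FKH2. What 2C stands for is not stated in the labels, and the titles of the mutant Rpb3 libraries write the strain as fkh1Δfkh1Δ2C. Nothing in the labels says that libraries of a group came from separate cultures, so p-values measure the spread between these libraries, which may be technical. Levels are the authors' normalized Rpb3 signal, averaged over the 50 bp bins inside each gene, so a level is already per length.

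Rpb3 is a core subunit of RNA polymerase II, and its signal over a gene follows how much polymerase occupies that gene, whether or not it makes stable RNA. Forkhead factor Fkh2 binds with Mcm1 and the coactivator Ndd1 at promoters of the CLB2 cluster, the genes transcribed from late S phase to mitosis, which encode mitotic cyclins, cytokinesis proteins and the transcription factor Swi5. Fkh1 shares many of these sites. The SIC1 cluster is transcribed next, at the exit from mitosis and in early G1, in part through Swi5, and includes the enzymes that dissolve the septum between mother and daughter.

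Over 5363 genes that passed a filter on low signal, the asynchronous mutant libraries agreed closely with each other (r = 0.980 on log2 levels, a description across genes) and with WT replicate 2 (r = 0.949 and 0.926). WT replicate 1 stood apart, with r = 0.557 to WT replicate 2 and 0.360 to 0.564 to all other libraries, whereas the G1 libraries had r = 0.945 to 0.970 among themselves. The replicates of WT differed by more than 2-fold at 418 genes, against 2 genes for the replicates of the mutant. In WT replicate 1 the ribosomal protein genes had a median level of 26.2, against 145 in WT replicate 2, and the mutant libraries had 172 and 181. Genes of the environmental stress response stood the other way, with a median log2 difference between WT replicates 1 and 2 of 1.26. All 8 libraries have nearly the same distribution of bin values, with a mean of 45.3, so every difference is relative to other genes, and a change of the total would not be seen. Read depth is unknown, and no counting interval can be given.

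**Figure D1:**
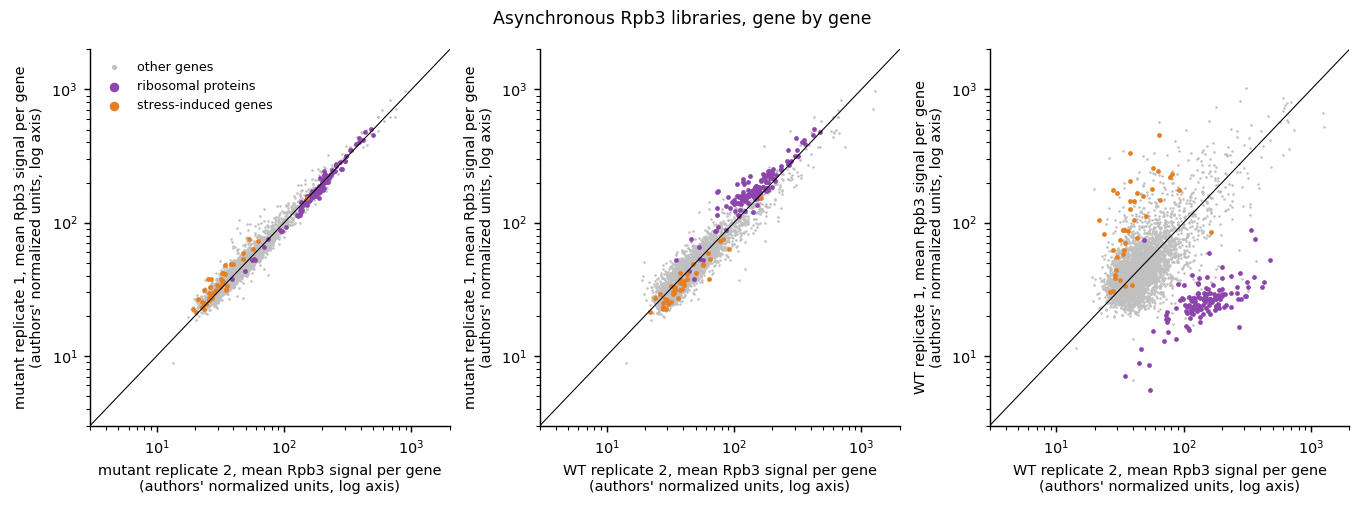
Mean Rpb3 signal of each gene (authors' normalized units, log axes, a point per gene tested) in pairs of asynchronous libraries: mutant replicate 1 against mutant replicate 2, mutant replicate 1 against WT replicate 2, and WT replicate 1 against WT replicate 2, with the line of equality. Ribosomal protein genes (purple) lie far below the line and stress-induced genes (orange) above it in the pair of WT replicates.

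The genes that the strain label names as deleted, FKH1 and FKH2, were examined first. Rpb3 over FKH1 averaged 2.26 and 1.32 in the asynchronous mutant libraries, against 35.1 and 39.0 in WT, over 1450 bp of chromosome IX, 100801 to 102250, in the coordinates of the files, whose build is not named. FKH1 signal was thus near 0 in both mutant libraries. Its mean level put FKH1 below the filter on low signal, and in a fit with no filter its log2 difference was -2.84 with all libraries (limma adjusted p = 0.143) and -2.91 without WT replicate 1 (limma adjusted p = 0.0552). FKH2 had a gap over part of its length: the last 700 bp before the stop codon, 495701 to 496400 of chromosome XIV, gave almost no signal, where the mutant libraries had 1.16 and 1.99 and WT had 36.0 and 39.3. The remaining 1900 bp of FKH2 carried 53.9 and 48.5 in the mutant and 32.9 and 38.2 in WT, so that the mean over the whole gene, 39.7 and 35.99 in the mutant and 33.7 and 38.5 in WT, hides the gap. The ends of both gaps were placed from these values. At FKH2 the gap thus covered the 3′ part of the gene only, although the label names the gene as deleted. Just past each gap the mutant had a peak that WT lacked. In the 500 bp beyond the FKH1 stop codon the mutant libraries had 145 and 162 and WT had 31.5 and 33.4, and beyond the FKH2 stop codon the mutant libraries had 117 and 129 and WT had 31.1 and 41.2. The arrested libraries had the same pattern, with 7.26 and 1.85 in the mutant and 41.0 and 27.7 in WT over the FKH1 gap, and 96.5 and 110.4 in the mutant and 27.7 and 24.5 in WT beyond its stop codon.

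**Figure D2:**
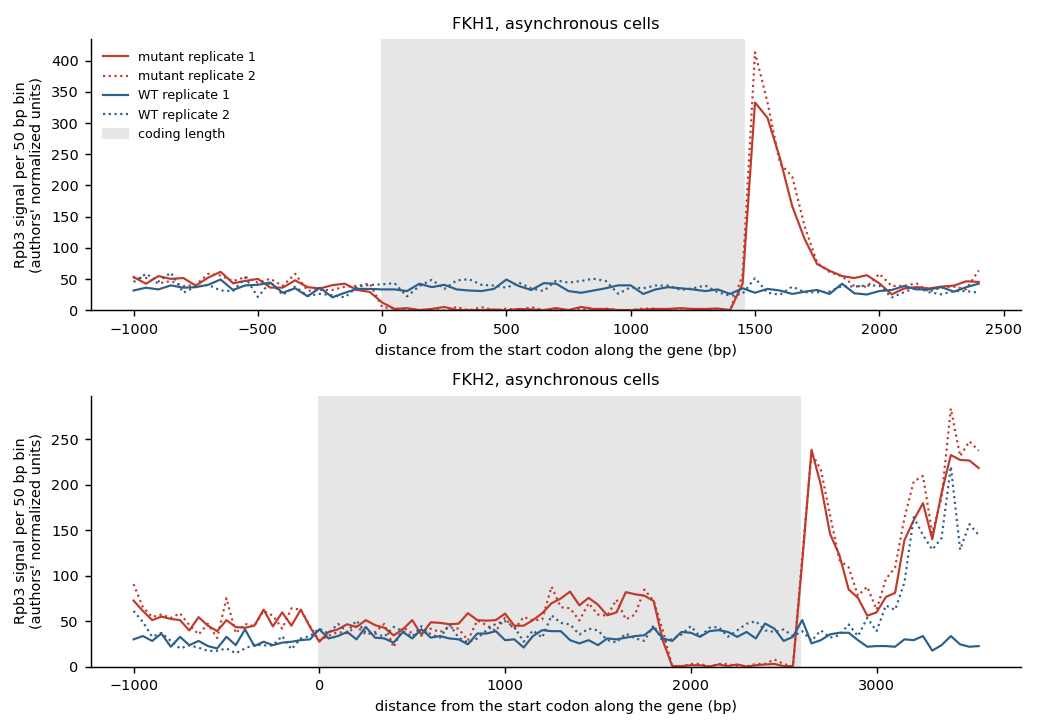
Rpb3 signal per 50 bp bin (authors' normalized units) in asynchronous cells against distance from the start codon of FKH1 (top) and FKH2 (bottom), mutant libraries in red and WT libraries in blue, replicate 1 solid and replicate 2 dotted, coding length shaded. Mutant signal is near 0 across FKH1 and over the 3′ end of FKH2, and peaks just past both stop codons.

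With all libraries in the fit, the mutant and WT differed past the threshold (limma with Benjamini-Hochberg adjustment, 0.05) at 0 of 5363 genes, which is 0% of those tested, and the smallest adjusted p was 0.116. At an unadjusted p under 0.05 there were 1270 genes (23.7%), 500 higher (9.32%) and 770 lower (14.4%) in the mutant. Without WT replicate 1, 10 genes passed (0.186% of genes tested), 6 higher (0.112%) and 4 lower (0.0746%). This fit has a single asynchronous WT library, which is assumed to vary like the other groups. Without WT replicate 2 in its place, 2612 genes passed, and without either mutant library 0 passed, with 557 and 272 genes at an unadjusted p under 0.05. The number of calls therefore depended on which WT library was kept. A count that needs no model is that of genes whose libraries do not overlap. Both mutant libraries exceeded both WT libraries at 24.5% of genes and lay below both at 35.1%, and with WT replicate 2 as the only WT library these shares were 33.9% and 49%.

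The 4 genes that fell without WT replicate 1 were SCW11, DSE2, CIT2 and MRH1, and each was lower in both mutant libraries than in either WT library. SCW11 (YGL028C, chromosome VII), which encodes a cell wall protein with similarity to glucanases that acts in separation of daughter cells, had 37.2 and 37.3 in the mutant libraries and 115 and 109.5 in WT. The WT replicates agreed on SCW11, and the log2 difference was -1.46 (SE 0.123, limma adjusted p = 0.0111), against -1.49 with all libraries (limma adjusted p = 0.116). DSE2 (YHR143W, chromosome VIII), a daughter-specific cell wall protein, had 61.01 and 55.2 in the mutant and 114 and 108 in WT (log2 difference -0.86, SE 0.0972, limma adjusted p = 0.0224). These values lay close together within each strain and well apart between them. MRH1 (YDR033W, chromosome IV), a plasma membrane protein related to the heat shock protein Hsp30, had 72.9 and 68.8 in the mutant and 216 and 177 in WT (log2 difference -1.27, SE 0.175, limma adjusted p = 0.0447). CIT2 (YCR005C, chromosome III), the peroxisomal citrate synthase, had 129.9 and 122 in the mutant and 505 and 236 in WT (log2 difference -0.89, SE 0.122, limma adjusted p = 0.0447). For CIT2 the WT replicates differed more from each other than WT replicate 2 did from the mutant.

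The 6 genes that rose without WT replicate 1 were SPC24, NEJ1, YCR085W and the ribosomal protein genes RPS29B, RPS30B and RPL31A. Both mutant libraries again lay outside the range of WT at each of them. SPC24 (YMR117C, chromosome XIII), a subunit of the Ndc80 complex that joins kinetochores to microtubules, had 85.9 and 98.4 in the mutant and 28.4 and 47.8 in WT (log2 difference 0.89, SE 0.101, limma adjusted p = 0.0224). NEJ1 (YLR265C, chromosome XII), which acts in non-homologous end joining, had 76.2 and 84.4 in the mutant and 33.4 and 46.6 in WT (log2 difference 0.74, SE 0.0979, limma adjusted p = 0.0447). At both genes the mutant level was above the higher WT replicate, and WT replicate 1 was the lower of the pair. YCR085W (chromosome III) had 50.5 and 51.9 in the mutant and 34.00 and 19.6 in WT, the only one of the 6 where WT replicate 1 was the higher (log2 difference 1.23, SE 0.126, limma adjusted p = 0.0221). RPS30B had 169.5 and 192 in the mutant and 18.02 and 74.1 in WT (log2 difference 1.24, limma adjusted p = 0.0447). RPS29B had 174 and 164 in the mutant and 19.1 and 74.9 in WT (1.14, limma adjusted p = 0.0221), and RPL31A had 196 and 199.7 in the mutant and 21.7 and 105 in WT (0.89, limma adjusted p = 0.0447). These 3 genes have near-identical paralogs, so reads may be split between copies. Rpb3 signal has no strand either, and signal of a close neighbour cannot be told apart from that of a gene. SHH3, 252 bp from SPC24, was higher too, with 36.6 and 36.7 in the mutant and 27.9 and 26.3 in WT. On its other side SPC24 lies 561 bp from ASC1. At NEJ1 the ratio of 3′ to 5′ signal was 1.74 and 1.82 in the mutant and 0.696 and 1.27 in WT. The part of neighbours at these genes was not tested.

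**Figure D3:**
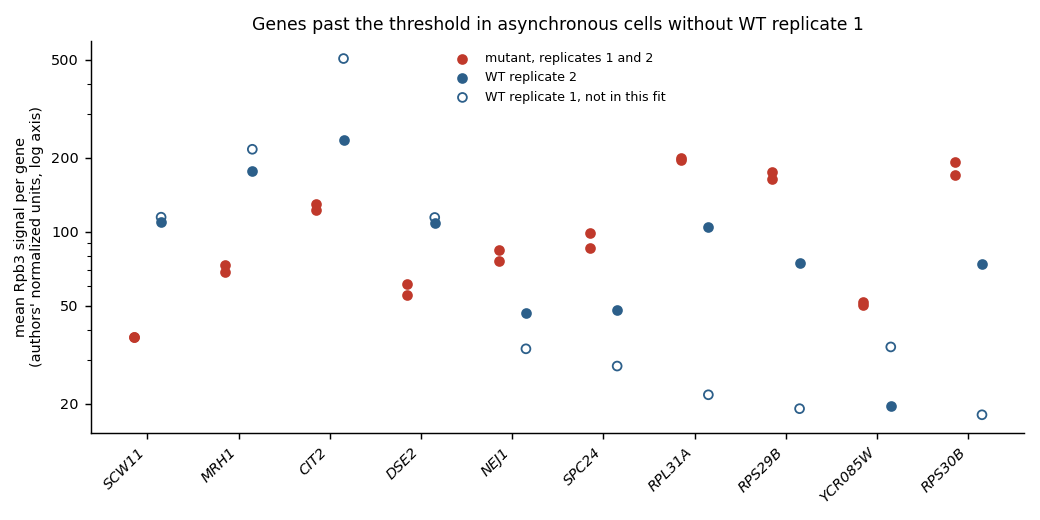
Mean Rpb3 signal (authors' normalized units, log axis) of the 10 genes that passed the threshold without WT replicate 1, in the mutant libraries (red) and in WT replicate 2 (blue) and WT replicate 1 (open blue, not in this fit), ordered by log2 difference. The mutant points lie below both WT points at the first 4 genes and above both at the other 6.

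Genes of daughter-cell separation were mostly lower in the asynchronous mutant. All gene lists used here were chosen with earlier results of these data known, so shares within a list are descriptions. Of 16 genes tested, SCW11 and DSE2 fell without WT replicate 1, both mutant libraries lay below both WT libraries at 10 (62.5%, against 35.1% of all genes) and above both at 1, MOB2. The median log2 difference was -0.22 with all libraries and -0.27 without WT replicate 1, against -0.04 and -0.04 over all genes. CTS1, the chitinase that degrades the septum, had 73.7 and 67.99 in the mutant and 117 and 111 in WT (log2 difference -0.63 without WT replicate 1, limma adjusted p = 0.0557). DSE1, a daughter-specific protein, had 50.7 and 47.96 in the mutant and 73.00 and 75.3 in WT (-0.57, limma adjusted p = 0.0562). Both genes missed the threshold narrowly although their strains did not overlap. EGT2, a cell wall protein needed for separation, had 107 and 116 in the mutant and 165 and 143 in WT, AMN1, a daughter-specific antagonist of mitotic exit, had 83.04 and 88.8 in the mutant and 102 and 116 in WT, and the glucanase gene DSE4 had 65.4 and 61.9 in the mutant and 73.8 and 83.5 in WT. CBK1, the kinase of the RAM pathway of cell separation, was lower by less, with 47.9 and 43.99 in the mutant and 54.3 and 53.2 in WT.

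The SIC1 cluster, which shares 9 genes with the separation list, behaved alike. Both mutant libraries lay below both WT libraries at 19 of 29 genes (65.5%, against 35.1% of all genes) and above at 1, CDC6. The median log2 difference was -0.33 with all libraries and -0.24 without WT replicate 1. Against WT replicate 2 alone, both mutant libraries were lower at 22 of 29 (75.9%, against 49% of all genes). Members outside the separation list included PRY3, a cell wall protein, with 43.96 and 43.6 in the mutant and 67.3 and 66.9 in WT, and NIS1, a bud neck protein, with 51.8 and 56.9 in the mutant and 70.6 and 69.8 in WT. PIR1, a cell wall protein held by internal repeats, had 96.9 and 111 in the mutant and 179 and 123 in WT. SIC1, the inhibitor of B-type cyclin kinase after which the cluster is named, had 49.4 and 49.9 in the mutant and 64.95 and 50.9 in WT, so that WT replicate 2 lay within about 1 unit of the mutant. ASH1, the daughter-specific repressor of HO, and PCL2, a cyclin of the kinase Pho85, had overlapping libraries, with 77.8 and 81.7 in the mutant and 76.9 and 85.00 in WT for ASH1 and 46.9 and 51.2 in the mutant and 44.9 and 48.1 in WT for PCL2.

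The CLB2 cluster did not move as a block in asynchronous cells. Of 35 genes tested 0 passed the threshold with or without WT replicate 1, both mutant libraries lay below both WT libraries at 17 (48.6%, against 35.1% of all genes) and above both at 7 (20%, against 24.5%), and the median log2 difference was -0.10 with all libraries and -0.13 without WT replicate 1. Lower members included WSC4, a protein of the cell wall integrity family, with 26.2 and 23.2 in the mutant and 55.6 and 45.8 in WT, and HST3, a histone H3 deacetylase, with 47.96 and 46.9 in the mutant and 69.6 and 76.5 in WT. The mitotic cyclin gene CLB1 had 43.4 and 35.6 in the mutant and 54.2 and 63.95 in WT. Their strains stood apart in every library. CLB2, the main mitotic cyclin, had 52.2 and 53.1 in the mutant and 54.3 and 66.5 in WT, and the mutant values lay just under WT replicate 1. CDC5, the polo kinase, overlapped, with 50.1 and 46.7 in the mutant and 47.5 and 64.3 in WT, as did SWI5, with 39.4 and 34.5 in the mutant and 42.3 and 38.9 in WT. Higher members included RAX2, which marks bud sites, with 50.6 and 53.8 in the mutant and 37.7 and 44.4 in WT, and TEM1, the GTPase of the mitotic exit network, with 48.8 and 48.4 in the mutant and 37.4 and 39.3 in WT. Members of this cluster therefore lay on both sides of WT. In these mixed cultures a different share of cells in a cell-cycle phase and a different polymerase level per cell cannot be told apart.

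The arrested libraries gave the same genes another direction. In G1 arrest both mutant libraries lay above both WT libraries at 30 of 35 CLB2 cluster genes (85.7%, against 20.5% of all genes) and below both at 0, with a median log2 difference of 0.31. For the SIC1 cluster the count was 14 of 29 (48.3%) higher and 1 lower, with a median of 0.17. CLB2 had 47.7 and 54.1 in arrested mutant cells and 23.2 and 21.6 in arrested WT. DSE2 had 42.9 and 45.9 in arrested mutant cells and 37.04 and 35.2 in arrested WT, and CTS1 had 48.9 and 44.3 in arrested mutant cells and 34.5 and 35.98 in arrested WT. These genes were thus higher in the arrested mutant and lower in the asynchronous mutant. SCW11 differed in kind, since its arrested libraries overlapped, with 69.9 and 84.8 in the mutant and 75.9 and 77.7 in WT. Within arrest 0 of 5363 genes passed with all libraries (205, or 3.82%, at an unadjusted p under 0.05), and 22 passed (0.41%) when asynchronous WT replicate 1, which shares the variance estimate, was left out, 15 higher (0.28%) and 7 lower (0.131%). CLB2 was among the 15, with a log2 difference of 1.06 (limma adjusted p = 0.00356). The difference between the stages' effects was tested directly. With all libraries 0 of 5363 genes passed (0%), with 290 at an unadjusted p under 0.05 (5.41%). Without asynchronous WT replicate 1, 8 genes passed (0.149%), all with a lower effect in asynchronous cells. They were CLB2 (log2 difference of effects -1.37, SE 0.121, limma adjusted p = 0.0163), SCW11 (-1.47, limma adjusted p = 0.0258), DSE2 (-1.13, limma adjusted p = 0.0258), CTS1 (-0.99, limma adjusted p = 0.0438), DSE1 (-0.95, limma adjusted p = 0.0463), YML119W (-0.82, limma adjusted p = 0.0258), the protein kinase gene FRK1 (-0.84, limma adjusted p = 0.0258) and PMA1 (-1.48, limma adjusted p = 0.0258), the plasma membrane proton pump. The gene lists were chosen with earlier results of these data known. On these lists, all of the genes just named belong to the SIC1 or the CLB2 cluster (29 and 35 of 5363 genes tested). With no filter on low signal none of them passed in the fit without that library, where the smallest adjusted p was 0.0706.

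**Figure D4:**
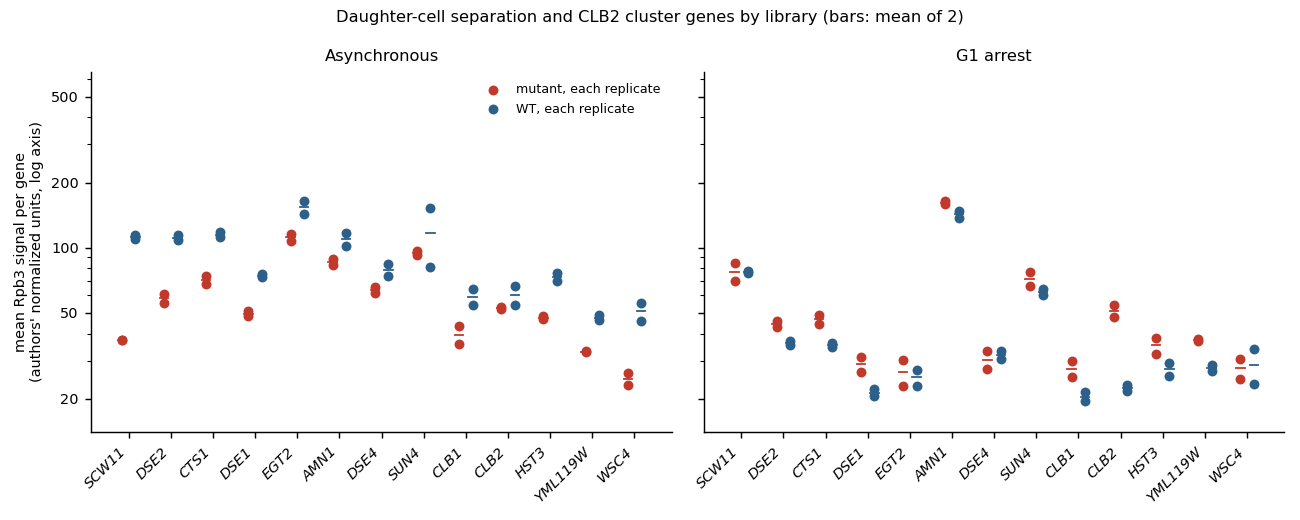
Mean Rpb3 signal (authors' normalized units, log axis) of daughter-cell separation and CLB2 cluster genes in asynchronous cells (left) and G1 arrest (right), a point per library and a bar at the mean of 2, mutant in red and WT in blue. The genes shown were picked from the lists, and those of the CLB2 cluster are lower members only. Over that whole cluster, both mutant libraries lay below both asynchronous WT libraries at 17 of 35 genes and above both at 7. Mutant points lie under WT points at most of the genes shown in asynchronous cells, and over them in arrest at genes such as CLB2, DSE2 and CTS1.

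**Figure D5:**
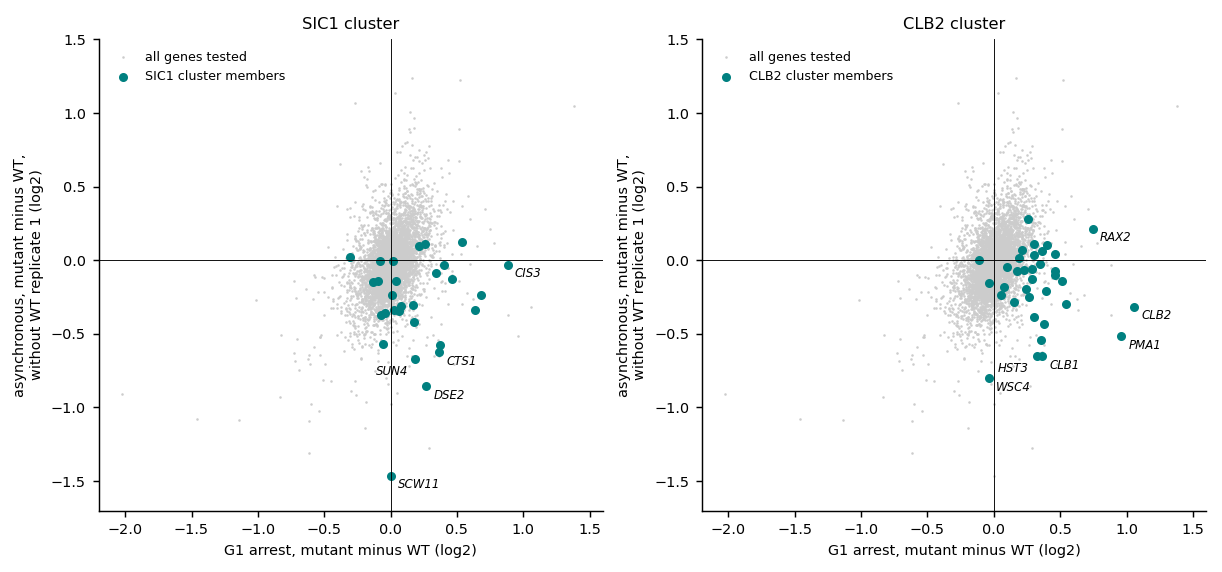
Log2 difference of mutant minus WT in asynchronous cells without WT replicate 1 (vertical) against G1 arrest (horizontal) for the SIC1 cluster (left) and the CLB2 cluster (right), over all genes tested in grey. Members of both clusters gather below and right of the origin, with SCW11 and DSE2 lowest in the left panel and CLB2 and PMA1 among the farthest right in the other.

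Ribosomal protein genes were higher in the mutant, by an amount that hung on the WT library. Both mutant libraries lay above both WT libraries at 117 of 134 genes (87.3%, against 24.5% of all genes). They lay above WT replicate 2 alone at 117 (87.3%, against 33.9%). The median log2 difference was 1.45 with all libraries and 0.27 without WT replicate 1, so the size of the difference rested on that library. In G1 arrest the median was 0.19, and 110 of 134 genes were higher in both mutant libraries (82.1%, against 20.5%). RPS29A had 211 and 202 in the mutant and 40.7 and 117 in WT, RPS30A had 155 and 156 in the mutant and 34.7 and 89.5 in WT, and RPL17B had 128 and 135 in the mutant and 21.2 and 73.8 in WT. RPL3, among the most occupied genes of the list, had 478 and 429 in the mutant and 52.2 and 475 in WT, where WT replicate 2 fell between the mutant libraries. Ribosome biogenesis genes were alike on a smaller scale, with 98 of 108 higher in both mutant libraries than in both WT libraries (90.7%, against 24.5%). In G1 arrest 50 of 108 were higher (46.3%, against 20.5%). The medians were 0.58 with all libraries, 0.22 without WT replicate 1 and 0.09 in G1 arrest. DBP2, an RNA helicase, had 119 and 145 in the mutant and 21.1 and 81.04 in WT, and CGR1, which acts in processing of pre-ribosomal RNA, had 86.1 and 102 in the mutant and 19.8 and 61.6 in WT. Short genes also stood higher: genes under 400 bp had a median log2 difference of 0.08 without WT replicate 1, and genes of 700 bp and over had medians of -0.04 to -0.06. Gene length was not separated from gene function here, and its part in the result was not tested.

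Genes of stress and of carbon and sulfur metabolism were lower in the mutant, again with WT replicate 1 far from the rest. Of 41 stress-induced genes 32 were lower in both mutant libraries than in both WT libraries (78.0%, against 35.1%) and 0 higher, with a median of -0.91 with all libraries and -0.22 without WT replicate 1, and -0.02 in G1 arrest. GPD1, the first enzyme of glycerol synthesis, had 47.9 and 34.1 in the mutant and 259.6 and 57.1 in WT, and HSP12 had 27.4 and 25.5 in the mutant and 82.1 and 23.8 in WT. At HSP12 only WT replicate 1 differed, and at GPD1 WT replicate 2 lay much nearer to the mutant than to WT replicate 1. Glycolysis was lower under either choice, with 15 of 20 genes below both WT libraries (75%, against 35.1%) and 20 of 20 below WT replicate 2 (100%, against 49%). The medians were -0.55 with all libraries and -0.43 without WT replicate 1. ENO1, an enolase, had 66.3 and 41.4 in the mutant and 498 and 104 in WT, GLK1, the glucokinase, had 37.9 and 26.7 in the mutant and 454 and 63.5 in WT, and PGK1, phosphoglycerate kinase, had 439.8 and 375 in the mutant and 866 and 604 in WT. None of these genes passed the threshold in either fit. Of 31 genes of methionine and sulfur assimilation 25 were lower in both mutant libraries than in both WT libraries (80.6%, against 35.1%). The medians were -0.71 and, without WT replicate 1, -0.23. MET6, methionine synthase, had 112 and 65.2 in the mutant and 742 and 178 in WT.

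The phosphate regulon lay mostly below WT in both stages, with 0 genes past the threshold in asynchronous cells. Both mutant libraries lay below WT replicate 2 at 10 of 12 genes (83.3%, against 49% of all genes) and below both WT libraries at 6 (50%, against 35.1%). The medians were -0.39 with all libraries and -0.51 without WT replicate 1. In G1 arrest 9 of 12 were lower (75%, against 21.3% of all genes), with a median of -0.40. PHO84, the high-affinity phosphate transporter, had 370.0 and 414 in the mutant and 499 and 739 in WT, and in arrest 114 and 101 in the mutant and 525 and 382 in WT. PHO5, the repressible acid phosphatase, had 110.2 and 89.03 in the mutant and 128 and 223 in WT (log2 difference -1.14 without WT replicate 1, limma adjusted p = 0.0562). At both genes the mutant lay below both WT libraries in asynchronous cells. PTR2, the peptide transporter, had 88.4 and 51.8 in the mutant and 328 and 147 in WT, and in arrest 60.6 and 42.5 in the mutant and 168 and 128 in WT. The list of nutrient transporters to which PTR2 belongs had 7 of 20 genes below both WT libraries (35%, against 35.1% of all genes), 15 below WT replicate 2 (75%, against 49%) and 9 lower in arrest (45%, against 21.3%), with medians of 0.02 with all libraries and -0.19 without WT replicate 1.

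The other cell-cycle lists held no gene past the threshold, with or without WT replicate 1. Of 25 genes of the S phase list of Hcm1 targets, 13 were higher in both mutant libraries than in both WT libraries (52%, against 24.5%), with medians of 0.13 with all libraries and 0.07 without WT replicate 1. PDS1, the securin, had 42.9 and 45.4 in the mutant and 33.5 and 34.1 in WT, and SPC98, a subunit of the gamma-tubulin complex, had 36.2 and 37.1 in the mutant and 25.6 and 29.1 in WT. HCM1 itself, a Forkhead factor of S phase, had 66.1 and 63.8 in the mutant and 68.8 and 83.2 in WT. The coactivator gene NDD1 had 51.9 and 54.01 in the mutant and 41.8 and 45.6 in WT, and MCM1 had 55.3 and 55.2 in the mutant and 58.7 and 67.6 in WT. Genes driven by SBF and MBF at the G1 to S transition depended on the WT library: 13 of 45 were below both WT libraries (28.9%, against 35.1% of all genes) and 3 above both (6.67%, against 24.5%), but 35 were below WT replicate 2 (77.8%, against 49%), and the median was -0.01 with all libraries and -0.14 without WT replicate 1. The MCM cluster of 15 genes had 0 below both WT libraries (0%) and 2 above both (13.3%), with 8 below WT replicate 2 (53.3%, against 49%). Of 10 histone genes 6 were below both WT libraries (60%, against 35.1%), with medians of -0.39 with all libraries and -0.18 without WT replicate 1, and HHT2, a histone H3 gene, had 213 and 165 in the mutant and 443 and 264 in WT.

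The identity of the cells was checked by markers. The median of the 6 a-cell genes tested was 82.9 and 103 in the mutant and 55.4 and 75.9 in WT. Over all genes it was 41.3 and 40.8 in the mutant and 40.5 and 41.5 in WT. The pheromone receptor gene STE2 had 226 and 234 in the mutant and 185 and 287 in WT. MFA2 had 231 and 264 in the mutant and 207 and 185 in WT. Not every member was high: ASG7 had 34.1 and 31.7 in the mutant and 41.9 and 38.8 in WT, near the α-cell gene SAG1 below. BAR1, which encodes the protease that degrades α-factor, was listed at 0 in all 8 Rpb3 libraries. Of 4 α-cell genes, STE3 and MF(ALPHA)1 fell below the filter on low signal, with 20.3 and 19.8 in the mutant and 22.3 and 22.3 in WT for STE3. MF(ALPHA)2 had 32.8 and 30.2 in the mutant and 28.1 and 28.3 in WT, and SAG1, the α-agglutinin gene, had 36.5 and 37.3 in the mutant and 36.9 and 45.04 in WT, and in arrest 96.7 and 62.9 in the mutant and 53.1 and 45.8 in WT. Of 14 meiosis and sporulation genes 11 fell below the filter on low signal. Pheromone response genes, which α-factor induces, had 9 of 29 lower and 5 higher in both asynchronous mutant libraries (31.0% and 17.2%, against 35.1% and 24.5% of all genes), with a median of -0.03. FUS1, needed for cell fusion, had 24.3 and 28.2 in the mutant and 37.04 and 38.01 in WT, and in arrest 185 and 228 in the mutant and 220.1 and 271 in WT.

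With all libraries in the fit, no gene passed, and the 15 genes with the smallest p in each direction are given as values. The lower ones were led by SCW11 and DSE2 and held CTS1, DSE1, HST3, WSC4, YML119W and MRH1, all described above except YML119W, which had 33.2 and 32.7 in the mutant and 48.8 and 45.98 in WT. The others were MDH2, cytoplasmic malate dehydrogenase (35.8 and 36.8 in the mutant, 73.4 and 56.5 in WT), the acetate transporter gene ADY2, the arrestin gene ROG3, USA1 of protein degradation at the endoplasmic reticulum, the sporulation kinase gene SMK1, the S-methylmethionine permease gene MMP1 and FRE5, a putative ferric reductase. Their log2 differences ranged from -0.77 for MDH2 to -0.32 for ROG3 (limma adjusted p = 0.194 for these 7). The higher ones were led by PFD1, a prefoldin subunit (47.6 and 46.8 in the mutant, 29.8 and 31.8 in WT), RSA3 (47.8 and 46.1 in the mutant, 25.3 and 27.9 in WT) and TSR2 (40.3 and 41.3 in the mutant, 25.1 and 26.7 in WT), both of ribosome assembly, each with limma adjusted p = 0.161. TRP1, of tryptophan synthesis, stood out by size, with 143 and 129 in the mutant and 62.1 and 63.5 in WT, and 181 and 137 in arrested mutant cells and 60.3 and 55.5 in arrested WT (asynchronous log2 difference 1.07, limma adjusted p = 0.194, and 1.05 without WT replicate 1, limma adjusted p = 0.0557). Others were YCG1, a condensin subunit (41.2 and 39.4 in the mutant, 25.6 and 29.1 in WT), SLK19, a kinetochore protein (33.7 and 36.6 in the mutant, 22.3 and 24.6 in WT), and SPC24. The rest were NEJ1 and SHH3, the meiotic axis gene RED1, the multidrug resistance regulator YRR1, the spermine synthase gene SPE4, BLS1, RDS3 and YDR042C, at log2 differences of 0.34 for YRR1 to 0.95 for NEJ1.

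RNA of the same strains and stage, from other libraries, was set beside these values. RNA was measured per strand, and for genes on the Crick strand 1 mutant and 1 WT library were usable. No gene passed for RNA, with 209 of 5363 (3.9%) at an unadjusted p under 0.05. Of the 15 lower leading genes 12 had RNA signal, and it was lower in the mutant at 12. Of the 15 higher ones 12 had RNA signal, and it was higher at 10. Over all genes with RNA signal, 42.4% were lower and 57.5% higher in the mutant. DSE2 RNA was 0.593 and 0.825 in the mutant and 2.81 and 2.41 in WT, and MRH1 RNA was 2.60 and 1.89 in the mutant and 6.69 and 5.97 in WT. SCW11 RNA was 0.687 in the mutant library and 2.67 in the WT library, and SPC24 RNA was 1.66 in the mutant library and 0.203 in the WT library. For these genes the RNA differed the same way as Rpb3. TRP1 RNA was 1.65 and 0.979 in the mutant and 0.472 and 0.366 in WT. NEJ1 RNA was nearly level, with 0.15 in the mutant library and 0.132 in the WT library. Of the 6 genes that rose without WT replicate 1, 4 had higher RNA in the mutant, and RPS29B did not, with 26.3 in the mutant library and 29.8 in the WT library. By list, RNA was lower at 12 of 16 separation genes and 21 of 28 SIC1 cluster genes (75% each, against 42.4%). Ribosomal protein RNA was near all genes, higher at 87 of 134 (64.9%, against 57.5%), with a median log2 difference of 0.09, beside 0.08 over all genes. Stress-induced genes went the other way from Rpb3, with higher RNA in the mutant at 32 of 38 genes and a median of 0.41. So did the respiratory chain and TCA cycle list, with higher RNA at 39 of 46 genes and a median of 0.36, beside -0.19 for Rpb3 with all libraries.

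Where the polymerase lay within genes was compared in 3645 genes of at least 900 bp, each cut into 3 equal portions, by the ratio of the 3′ portion to the 5′ portion. The median ratio was 1.05 and 1.05 in the mutant libraries, 0.968 in WT replicate 1 and 1.05 in WT replicate 2. By this ratio WT replicate 2 and the mutant did not stand apart. They did at the gene end: in the last of 10 portions, relative signal was 1.08 and 1.11 in the mutant and 0.979 and 0.976 in WT. In arrest it was 0.941 and 1.08 in the mutant and 1.00 and 1.05 in WT. The difference in the last portion was not tested. With all libraries 4 genes passed (0.11% of genes tested), against 416 (11.4%) at an unadjusted p under 0.05. They were FKH2 (log2 difference -1.50, limma adjusted p = 7.52e-04), where the 3′ gap lies, RPS9A (-0.98, limma adjusted p = 0.00824), the nuclear pore gene NUP57 (0.99, limma adjusted p = 0.0370) and the mitochondrial carrier gene YHM2 (0.84, limma adjusted p = 0.0402). In NUP57 the ratio was 2.00 and 2.02 in the mutant and 0.949 and 1.08 in WT, and in YHM2 it was 1.18 and 1.18 in the mutant and 0.591 and 0.726 in WT. The strains thus stood apart at both genes. NUP57 lies 315 bp from the ribosomal protein gene RPS23A and YHM2 319 bp from RPL20A, and the part of these neighbours in the ratios was not tested. Without WT replicate 1 only FKH2 passed (0.0274%), at -1.45 (limma adjusted p = 0.0131). The other 3 kept differences of similar size, -0.88 at RPS9A, 0.89 at NUP57 and 0.70 at YHM2 (limma adjusted p = 0.157, 0.159 and 0.328).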

How the data were processed

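Rpb3 immunoprecipitates and RNA were sequenced in fkh1Δfkh2Δ2C and WT, asynchronous or in G1 arrest, 2 libraries a group. The authors deposited normalized signal in 241409 bins, 50 bp each, over 16 chromosomes, per the file headers. The aligner, build and normalization are not named by the labels or headers, and depth is unknown. Repeated names kept 2 columns of RNA signal out. Bins were assigned to genes of RefSeq assembly R64 after fitting shifts between the files and R64 on stranded RNA. Of 6002 genes 5959 were placed, 231 genes of chromosome XI with a shift of 7 bins and the others with 0 or 1. For Rpb3 the most common RNA shift, -1 bin, was taken off, because the FKH1 gap in Rpb3 lay at unshifted coordinates. That placement was thus chosen with the mutant signal at FKH1 in view. The mean over bins was tested as log2(signal + 3.93; 0.0654 for RNA), 10% of the median, with limma 3.58.1 in R 4.3.3 over all 8 libraries of an assay, variance trend on, 2-sided, Benjamini-Hochberg adjustment, threshold 0.05, leaving out the 10% of genes with the lowest mean. Folds on this scale understate changes of low genes. The fit was tested on simulated data with equal noise in every library. That simulation holds no library that stands apart, as WT replicate 1 does here. Named genes are FKH1 and FKH2, the 15 leading genes in each direction (called and not overlapping first, then by smallest p), called members and up to 4 largest differences per list, and genes called between stages or along genes; other list members were named for their role after values were seen. The members and lists were chosen with earlier results of these data known. Alternatives were other pseudocounts, scaling, filters, placement, the median of bins, library weights, a replicate block and leaving out each library.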

Additional observations from a re-analysis of the deposited data

Results flagged for a closer look

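At 12 of 121 named genes both mutant libraries lay on one side of both WT libraries in asynchronous cells and on the other side in G1 arrest. The share over all genes was not counted, so the 12 are not read as an excess. Genes called between stages were among those named, which favours such genes in the count. With all libraries the test of this difference between stages passed at none of them, and the values of the difference of log2 effects, asynchronous minus arrested, follow for that fit. It was -1.16 at DSE2, -1.03 at CTS1 and -0.93 at DSE1, of daughter-cell separation, and -1.24 at CLB2, -0.91 at HST3, -0.90 at CLB1, -0.86 at YML119W and -0.75 at FRK1, of the CLB2 cluster. All 8 were lower in the asynchronous mutant and higher in the arrested mutant. The opposite held at BLS1, with 0.72, RDS3, a splicing factor, with 0.50, the mitochondrial ribosome gene MRPL19, with 0.58, and KAR4, a transcription factor of the pheromone response, with 0.43. BLS1 had 58.6 and 57.4 in the mutant and 33.8 and 40.5 in WT in asynchronous cells, and 36.3 and 37.1 in the mutant and 38.9 and 41.6 in WT in arrest. The adjusted p of these 12 ranged from 0.195 to 0.659 by limma. Without asynchronous WT replicate 1, CLB2, DSE2, CTS1, DSE1, YML119W and FRK1 passed and the other 6 did not.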

How the results depend on the processing

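With all libraries, the asynchronous comparison called 0 genes under every alternative of scaling, pseudocount, filter, placement, median of bins, library weights and asynchronous libraries alone. The library weights came out equal within each group, at 0.186 for asynchronous WT replicate 1 and 0.186 for replicate 2. They therefore could not lower the part of WT replicate 1 alone. Leaving out one library gave 0 to 2612 genes, the highest without WT replicate 2. Without WT replicate 1 alone it gave 10, and 8 to 36 when another choice was changed as well: 10 at unshifted R64 coordinates, 36 with libraries centred on their median, 10 with the median of bins, 8 with no filter, and 9 and 26 with a pseudocount of 1% and 50%. Of the 10 genes, 10 were shared with the calls at unshifted coordinates, with centring and with the larger pseudocount, 9 with the smaller pseudocount, and 7 with the median of bins and with no filter.

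In G1 arrest 0 genes passed, 16 with library weights and 0 to 23 with a library left out; without WT replicate 1 it was 22, and with another choice changed as well 22 (centring), 14 (median of bins), 12 (no filter), and 22 and 21 (pseudocount of 1% and 50%). The difference between stages gave 0, and 0 to 1833 with a library left out, the highest without WT replicate 2; without WT replicate 1 centring gave 12 and the larger pseudocount 11. Along genes 4 passed, with 1 when the RNA shift was applied, 8 with library weights, 1 with the median of bins, 1 with no filter, 2 with asynchronous libraries alone and 0 to 241 with a library left out. RNA gave 0, and 2 with no filter. The cause of these changes was not tested. The placement used for Rpb3, the RNA shift and the combinations with WT replicate 1 left out were chosen after seeing the data. The sign of the asynchronous difference changed under at least 1 alternative at 11 named genes, of which FKH2, MF(ALPHA)2, NUP57 and PMA1 are described above. It also changed in 11 list medians, of which that of the a-cell genes was farthest from 0 with all libraries (0.11).

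The replicate numbers pair no samples by the labels. Deviations of same-numbered libraries correlated at 0.386 between mutant and WT in asynchronous cells and 0.466 in arrest, and at 0.0207 to 0.189 between stages. With the replicate block the pairing gave 0 genes in asynchronous cells, 0 in arrest, 0 for the difference between stages and 17 along genes. A description of promoter motifs was not run, since no genome was used here. Depth is unknown, and 2 libraries a group limit every test.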

Other observations

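In G1 arrest 20 of 46 genes of the respiratory chain and the TCA cycle were higher in both mutant libraries (43.5%, against 20.5% of all genes) and 3 lower (6.52%, against 21.3%). In asynchronous cells 19 were below both WT libraries (41.3%, against 35.1%) and 7 above both (15.2%, against 24.5%), against WT replicate 2 alone 19 were lower and 18 higher, and the median was -0.19 with all libraries and -0.02 without WT replicate 1, which lay above the other 3 libraries at 36 genes. Mitochondrial ribosome genes had 14 of 69 above both WT libraries (20.3%), 11 below both (15.9%) and 36 above WT replicate 2 (52.2%, against 33.9%), with medians of 0.01 with all libraries and 0.05 without WT replicate 1. Of 20 cell wall PIR and stress mannoprotein genes 9 were below both WT libraries (45%, against 35.1%), 3 above both (15%, against 24.5%) and 13 below WT replicate 2 (65%, against 49%). Of 13 genes of filamentous growth 5 were below both WT libraries (38.5%, against 35.1%), 2 above both (15.4%), 10 below WT replicate 2 (76.9%, against 49%), and in G1 arrest 5 were lower (38.5%, against 21.3%) and 0 higher. Of 26 genes of RNA polymerase II and its elongation factors 3 were below both WT libraries (11.5%), 7 above both (26.9%) and 15 below WT replicate 2 (57.7%), and RPB3, the gene of the precipitated subunit, had 51.7 and 53.6 in the mutant and 40.8 and 53.7 in WT. No gene of these 5 lists passed the threshold in asynchronous cells, with or without WT replicate 1.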
